A study of Mus musculus with 20 samples.

Results

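The thrombospondin (TSP) genes Thbs1, Thbs2, Thbs3, Thbs4 and Comp and the genes of 2 cell surface receptors, Cd36 and Cd47, were followed in mouse liver. Members were taken by gene symbol, which selected 8 rows with 7 symbols out of 38924 genes in the table. The eighth row is a Cd47 pseudogene at 0 in every library. RNA came from unsorted liver tissue of male mice, 5 per group, bought at 5 weeks of age, acclimated for 1 week and then fed for 12 weeks. NDWT were C57BL/6J mice on control diet (Normal Diet in the labels) and NDKO were TSP-1 knockout (TSP-1 null) mice on the same diet. HFWT and HFKO were the same strains on CDAHFD, a high fat diet without choline, with limited methionine and with amino acids in place of protein. This diet was used as a model of non-alcoholic steatohepatitis. Both strains were bought as separate stocks. Levels are FPKM, fragments assigned to the gene relative to its length and to the depth of the library, as means ± SD over 5 mice.

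Thrombospondins are large secreted glycoproteins that bind calcium, matrix proteins, proteases and growth factors, and regulate how cells attach to and remodel the matrix. TSP-1 and TSP-2 assemble as trimers and carry type 1 repeats, whereas TSP-3, TSP-4 and COMP (TSP-5) assemble as pentamers without them. TSP-1 can release TGF-β1 from its latent complex, which makes it of interest in fibrosis, and TSP-2 lacks the sequence used for this. CD36 binds the type 1 repeats and also takes up long chain fatty acids and oxidized lipoproteins. CD47 binds the carboxyl end of TSP-1 and, as ligand of SIRPα, restrains phagocytosis.

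Thbs1 is the targeted gene and was read first in every library. It lies on chromosome 2 from 118111876 to 118127133, plus strand, on GRCm38, with 22 exons in its longest coding transcript. In ascending order, its FPKM was 0.058, 0.165, 0.170, 0.268 and 0.326 in NDWT and 0.986, 1.00, 1.13, 1.5 and 1.90 in NDKO. On CDAHFD it was 3.46, 3.86, 3.91, 5.77 and 6.10 in HFWT, whereas HFKO livers had 3.05, 3.14, 3.30, 3.32 and 4.40. On control diet all 5 libraries labelled TSP-1 null lay above all 5 labelled WT, and on CDAHFD the groups overlapped, with a mean of 3.44 in HFKO and 4.62 in HFWT. The table gives 1 value per gene and none per exon, which leaves RNA of a disrupted and of an intact allele together, and the structure of the allele is not given in the sources used here. Fragments on 2 mitochondrial tRNA genes, mt-Tg and mt-Tr, chosen after their values were known, were 0 in all 10 libraries labelled TSP-1 null, and together 7 to 32 in NDWT and 9 to 18 in HFWT. Chosen in this way, these 2 genes are no test of the labels, and they do not bear on the Thbs1 allele. Genotypes are given as labelled.

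Libraries held 15641545 to 23276322 assigned fragments, and hepatocyte markers summed to at least 26201 FPKM in each library. HFWT library 5 stood apart: the ribosomal RNA-like rows Gm26924 and Gm23935 took 4.47% and 1.08% of its fragments, against at most 1.83% and 0.229% in any other library. Without it every member kept the calls given below. The deposited FPKM put the median tested gene higher on CDAHFD, at a log2FC of 0.53 in WT and 0.50 in libraries labelled TSP-1 null. Scaling by the median of ratios between libraries brought these medians to −0.01 and −0.01, so diet effects are also given on that scale. In bulk liver, fewer cells of a type and less RNA per cell cannot be told apart.

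**Figure D1:**
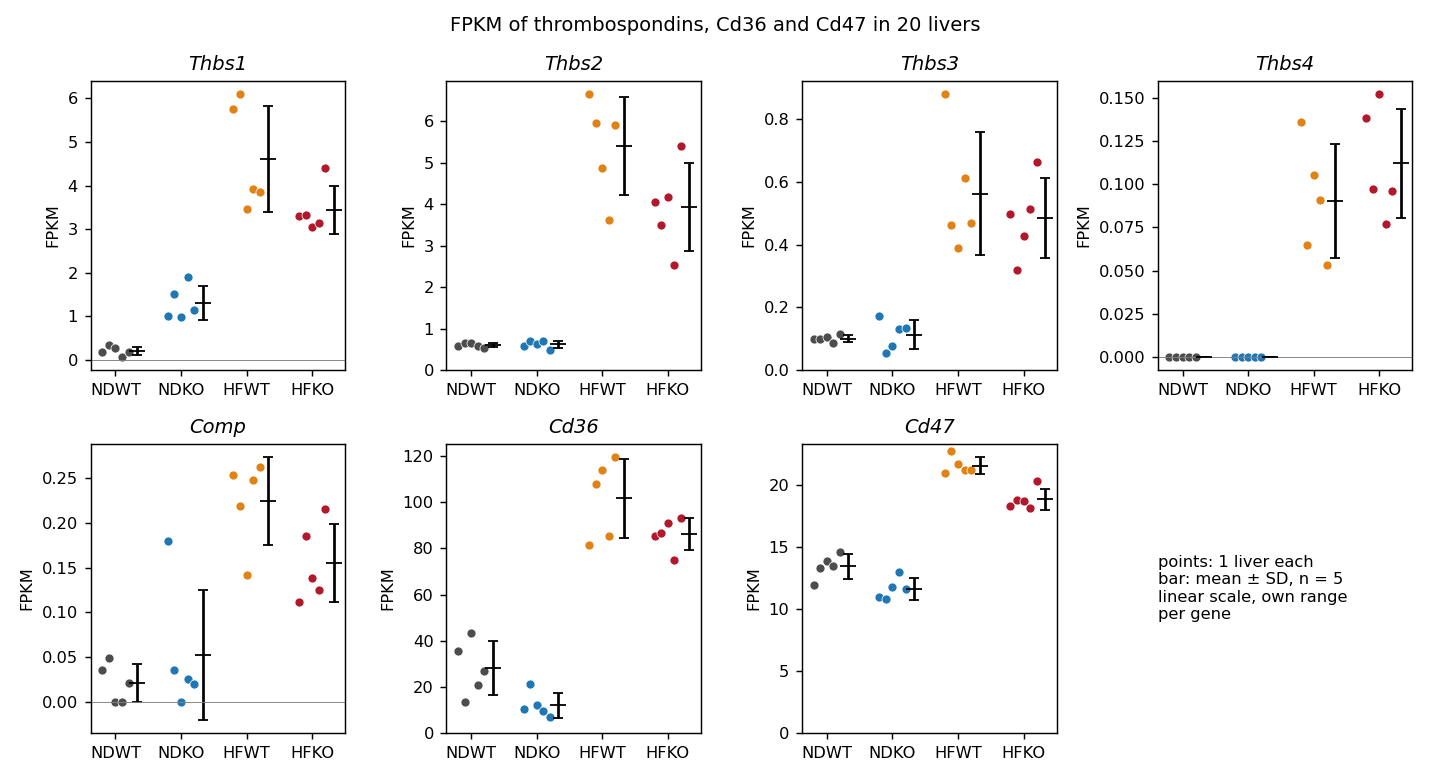
FPKM (linear y axis, own range per gene) of the 7 genes in the 4 groups; each point is 1 liver and the bar beside it is the mean ± SD of 5 livers. Thbs1 is highest in HFWT (4.62 ± 1.22) and lowest in NDWT (0.197 ± 0.103), Thbs4 is at 0 on control diet, and Cd47 shows the narrowest groups.

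On the deposited scale, all 7 members had a higher mean level in CDAHFD fed than in control diet fed WT mice. The mean level of Thbs1 was 23.4-fold higher, of Thbs2 8.89-fold, of Cd36 3.63-fold and of Cd47 1.61-fold. Thbs1, Thbs2, Cd36 and Cd47 passed the filter on low values (FPKM above 0.5 in at least 5 libraries), and all 4 were called higher by limma at an FDR under 0.05 and an absolute log2FC above 0.58. Of all 14524 tested genes, 48.8% were called in this comparison and 44.1% were called higher, so a call in this direction was common. In libraries labelled TSP-1 null the same 4 members were called higher on CDAHFD, where 45.9% of tested genes were called and 41.9% were called higher. Thbs3, Thbs4 and Comp failed the filter and were compared by exact permutation tests, 11 in all.

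Thbs1 had 0.197 ± 0.103 FPKM in NDWT and rose to 4.62 ± 1.22 FPKM in HFWT (log2FC 4.03, 95% confidence interval 3.54 to 4.52, FDR 2.39e-11). In libraries labelled TSP-1 null it rose from 1.30 ± 0.390 to 3.44 ± 0.547 FPKM (log2FC 1.36, SE 0.24, FDR 3.84e-05). Every CDAHFD library lay above every control library, as it did for 50.5% of tested genes in WT and 52.7% in libraries labelled TSP-1 null. The rise was 3.56 and 0.86 on the log2 scale after median of ratios scaling and was called in both. A pseudocount of 1 in place of 0.1 lowered the WT value to 2.21. The NDWT libraries held 6 to 33 Thbs1 fragments each.

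On control diet Thbs1 was 6.60-fold higher in NDKO than in NDWT by mean FPKM (log2FC 2.28, 95% confidence interval 1.78 to 2.77, FDR 1.02e-05), where 4.77% of tested genes were called and 1.74% were called higher. The 2 groups did not overlap, which held for 2.33% of tested genes in that direction. Over the alternative settings the value ranged from 0.93, with a pseudocount of 1, to 2.84, with limma-voom on the recovered fragments, and the call stood in each. On CDAHFD the log2FC between HFKO and HFWT was −0.39 (95% confidence interval −0.88 to 0.10, FDR 0.408) and the groups overlapped. The 2 genotype differences differed from each other by −2.66 (SE 0.33, FDR 0.0023), a call that 0.647% of tested genes received, 0.31% with a negative sign.

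Platelets carry TSP-1 in their granules. The 10 platelet and megakaryocyte markers summed to 3.08 to 4.37 FPKM in NDWT and 4.45 to 6.60 in NDKO, and to 11.8 to 15.8 in HFWT and 11.1 to 14.4 in HFKO. The sums of NDWT and NDKO did not overlap, which held for 2.33% of single tested genes in that direction. No such share is given here for sums of 10 genes. Of the 5 tested markers 0 were called between NDKO and NDWT by limma and 0 by limma-voom, and 2 had an unadjusted p under 0.05 in each. How many of all tested genes had such a p is not given here. The glycoprotein genes Gp1ba, Gp1bb, Gp5 and Gp9, which are part of this sum, stayed at or under 0.575 FPKM in every library. Itga2b, also part of it, had 0.472 ± 0.0986 FPKM in NDWT and 0.678 ± 0.139 in NDKO. It was not called by limma (FDR 0.108). The 11 stellate cell markers, which include the collagen gene Col1a1, summed to 24.7 to 31.7 FPKM in NDWT, 30.3 to 32.2 in NDKO, 109 to 208 in HFWT and 120 to 177 in HFKO. All 11 were called higher on CDAHFD in both genotypes on the deposited scale, as were 44.1% of tested genes in WT and 41.9% in libraries labelled TSP-1 null. Of the 11, 1, Acta2, was called lower in NDKO than in NDWT (log2FC −1.13, FDR 0.0155), as were 3.03% of tested genes. The Acta2 call was lost with limma-voom (FDR 0.0546), with only these 2 groups (FDR 0.0562) and with a pseudocount of 1 (FDR 0.132). The macrophage markers summed to 106 to 146 FPKM in NDWT, 97.3 to 167 in NDKO, 399 to 558 in HFWT and 292 to 553 in HFKO. On CDAHFD 6 of the 9 tested were called higher and 1 lower in each genotype, beside the same shares of all tested genes called higher. Of these 9, Trem2, a receptor of lipid associated macrophages, was called higher in NDKO than in NDWT (log2FC 0.79, FDR 0.00812) and in the interaction (−1.28, FDR 0.0258), the signs that Thbs1 had. Both Trem2 calls were lost with limma-voom (FDR 0.134 and 0.106) and with a pseudocount of 1 (FDR 0.276 and 0.0722), and that in the interaction also when any 1 of 6 libraries was left out, the third of NDWT, the fourth of NDKO, HFWT 3 and 4 and HFKO 1 and 2 (−1.30 to −1.23, FDR 0.05001 to 0.0572). The part of these cells in the levels of Thbs1 and the other members was not tested.

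By likeness of pattern, the genes nearest to Thbs1 over the 20 libraries included Myc, Gm379, Dtx3 and Pdgfra. Their root mean square difference from Thbs1 on the centred log2(FPKM + 0.1) scale was 0.65 to 0.69, against a median of 1.45 over tested genes. Myc, a transcription factor, went from 1.22 ± 0.437 FPKM in NDWT to 2.88 ± 0.742 in NDKO, and from 7.46 ± 1.80 in HFWT to 7.84 ± 1.24 in HFKO. The 20 points share the 4 groups, so this ranking describes the group pattern and carries no test.

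Thbs2 encodes the other trimeric thrombospondin and lies on chromosome 17 from 14665500 to 14694262, minus strand. Its FPKM was 0.533, 0.590, 0.595, 0.655 and 0.668 in NDWT and 0.484, 0.581, 0.641, 0.697 and 0.699 in NDKO. On CDAHFD it was 3.63, 4.87, 5.91, 5.96 and 6.67 in HFWT, whereas HFKO livers had 2.53, 3.50, 4.07, 4.17 and 5.41. The diets did not overlap and the genotypes did on each diet. Thbs2 rose by a log2FC of 2.93 in WT (SE 0.17, FDR 2.498e-11) and of 2.45 in libraries labelled TSP-1 null (SE 0.17, FDR 3.42e-10), or 2.41 and 1.96 after median of ratios scaling. On control diet the difference between the labels was 0.02, with a 95% confidence interval of −0.34 to 0.38, and on CDAHFD it was −0.46 (interval −0.82 to −0.10, FDR 0.179). Thbs2 thus showed no rise in NDKO of the size seen for Thbs1. Its nearest genes by pattern were Oxct1, Abcc1 and Ahnak, with root mean square differences of 0.16 to 0.21 against a median of 1.17.

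The 250 bases before the RefSeq start of Thbs2 and of Cd36 are shown because these genes had the largest diet effects among tested members with an entry in the promoter table (GRCm38.p6). 5 of the 7 members had one. The Cd36 window lies within the span of the gene, which has 6 annotated transcripts, and not before its outermost start. Capitals mark matches, on either strand, to 5 short motifs. These were the AP-1 motif with the letters TGANTCA, the GC box with the letters GGGCGG, the TATA box with the letters TATAAA, the SMAD element with the letters CAGAC and the nuclear receptor half-site with the letters AGGTCA. No match overlaps another.
Thbs2, chr17:14694263-14694512, minus strand: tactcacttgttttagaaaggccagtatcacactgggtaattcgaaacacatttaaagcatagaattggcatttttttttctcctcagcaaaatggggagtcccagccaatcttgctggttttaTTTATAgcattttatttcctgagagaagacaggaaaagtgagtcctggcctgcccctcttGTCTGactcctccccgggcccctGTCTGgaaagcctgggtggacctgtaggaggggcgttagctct
Cd36, chr5:17835897-17836146, minus strand: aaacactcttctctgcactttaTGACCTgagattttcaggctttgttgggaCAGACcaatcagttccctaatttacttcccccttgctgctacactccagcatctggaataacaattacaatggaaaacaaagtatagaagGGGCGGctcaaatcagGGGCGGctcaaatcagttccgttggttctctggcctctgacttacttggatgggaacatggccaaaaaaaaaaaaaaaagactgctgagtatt

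Counting from −1 just before the start, the Thbs2 window held 2 SMAD elements, with ends at −62 and −39, and 1 TATA box match with its end at −121. All of these were on the opposite strand. The Cd36 window held 2 GC boxes, 1 SMAD element and 1 nuclear receptor half-site on the opposite strand. Of 32817 windows of this length, 42.2% held a SMAD element, 32.7% a GC box, 12.4% a TATA box, 14% a half-site and 6.75% an AP-1 motif. None of the 5 members' windows held the AP-1 letters. GC content was 46.8% for Thbs2 and 43.2% for Cd36, against a median of 52.4% over all windows, and 70.8% for Thbs4 and 58.8% for Thbs3. The Cd47 windows, at 73.2% and 74.4%, overlapped annotated exons and are not printed. A match to such short letters is a description only.

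Of the pentameric thrombospondins, Thbs3 was the most abundant, with 0.1002 ± 0.0106 FPKM in NDWT and 0.113 ± 0.0465 in NDKO, and with 0.562 ± 0.195 in HFWT against 0.484 ± 0.127 in HFKO. Libraries held 6 to 17 Thbs3 fragments on control diet and 24 to 76 on CDAHFD, and the diets did not overlap in either genotype. The difference on the log2(FPKM + 0.1) scale was 1.68 in WT and 1.45 in libraries labelled TSP-1 null (two-sided exact permutation test, p = 0.00794 each, the smallest that 5 against 5 libraries can give). In fragments relative to depth this was 5.56-fold and 4.39-fold. Between the labels Thbs3 differed by 0.07 on control diet (exact permutation p = 0.698) and by −0.16 on CDAHFD (exact permutation p = 0.492). Thbs3 lies on chromosome 3 from 89215180 to 89226837, plus strand, and 318 of its 4823 exonic bases (6.59%) are covered by exons of Mtx1 on the other strand. Mtx1, a gene of the mitochondrial outer membrane import machinery, had 8.38 ± 0.440 FPKM in NDWT and 10.4 ± 1.24 in HFWT. Whether counting used strand is not given in the sources used here, so fragments of the shared bases are uncertain.

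Thbs4, best known from muscle, tendon and nervous tissue, had 0 fragments in all 10 control diet livers. On CDAHFD it was found in every liver, with 3 to 8 fragments (0.053 to 0.136 FPKM) in HFWT and 5 to 10 fragments (0.077 to 0.152 FPKM) in HFKO. Against a floor of 3 fragments over each control group, it was at least 9.39-fold higher in HFWT than in NDWT and at least 12.1-fold higher in HFKO than in NDKO (exact permutation p = 0.00794 each). HFKO and HFWT overlapped (log2 difference 0.16, exact permutation p = 0.302). A count of 0 at this depth limits the level and does not show that the gene was silent.

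Comp, a matrix protein of cartilage and tendon, had 0, 0, 0.021, 0.035 and 0.049 FPKM in NDWT and 0.142, 0.219, 0.248, 0.253 and 0.262 in HFWT. It rose by 1.43 on the log2 scale in WT (exact permutation p = 0.00794), from 5 to 51 fragments per group. In NDKO it was 0, 0.020, 0.026, 0.036 and 0.180, and in HFKO 0.112, 0.125, 0.138, 0.185 and 0.216. The highest NDKO library held 9 of that group's 13 fragments and overlapped HFKO. The difference in libraries labelled TSP-1 null was 0.83 (exact permutation p = 0.0317), and it was 0.61 (exact permutation p = 0.0794) after median of ratios scaling. Without the highest NDKO library it was 1.08 (exact permutation p = 0.00794), while leaving out any other NDKO library raised the exact permutation p to 0.0556. Between HFKO and HFWT Comp differed by −0.35 (exact permutation p = 0.0556), and between NDKO and NDWT by 0.25 (exact permutation p = 0.5).

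The summed thrombospondin level was 0.927 ± 0.161 FPKM in NDWT and 2.09 ± 0.432 in NDKO. It was 10.9 ± 2.30 FPKM in HFWT and 8.13 ± 1.63 in HFKO. Thbs2 made up most of it in NDWT, 66.6% ± 8.28, with Thbs1 at 20.3% ± 8.01 and Thbs3 at 11.02% ± 1.85. In NDKO the order of the leading genes was the other way round, with Thbs1 at 61.6% ± 6.78 and Thbs2 at 30.2% ± 4.64. On CDAHFD Thbs1 held 42.2% ± 4.72 in HFWT and 42.8% ± 4.25 in HFKO, and Thbs2 held 49.7% ± 5.49 and 47.9% ± 5.03. The Thbs1 share was 41.4 points higher in NDKO than in NDWT and 21.9 points higher in HFWT than in NDWT (two-sided exact permutation test, p = 0.00794 each). In libraries labelled TSP-1 null it fell by 18.9 points on CDAHFD (exact permutation p = 0.00794). Between HFKO and HFWT it differed by 0.575 points (exact permutation p = 0.825). Thbs3 held 5.20% to 11.02% on average, Comp 1.91% to 2.59% and Thbs4 at most 1.40%. The ratio of Thbs1 to Thbs2 FPKM ran from 0.0983 to 0.488 in NDWT, from 1.54 to 2.72 in NDKO, from 0.653 to 1.08 in HFWT and from 0.731 to 1.24 in HFKO.

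**Figure D2:**
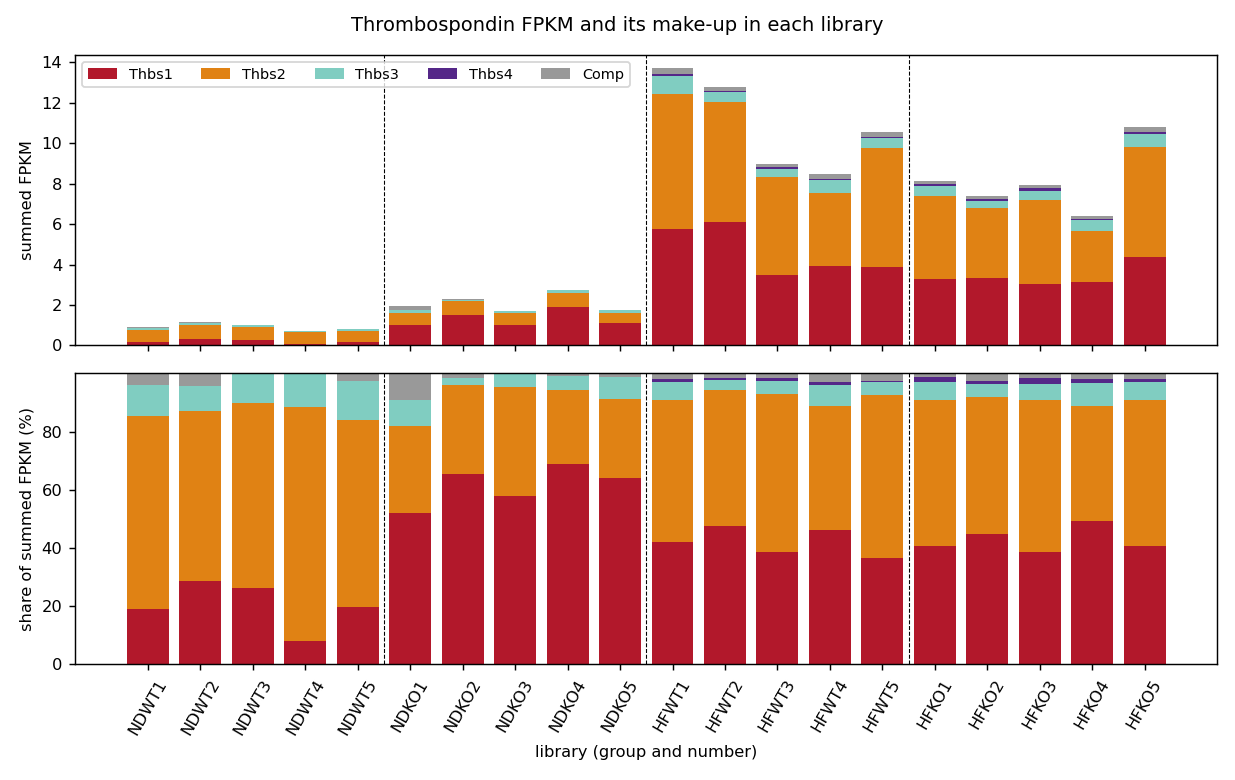
Stacked bars for the 20 libraries (x axis): summed FPKM of the 5 thrombospondin genes above, and the share of each gene in that sum (%) below; dashed lines part the 4 groups. Thbs1 takes 51.9% to 69.0% in every NDKO library and 7.91% to 28.5% in every NDWT library, and the 10 CDAHFD libraries lie between, at 36.6% to 49.2%.

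Cd36 encodes the fatty acid translocase and scavenger receptor that binds type 1 repeats, on chromosome 5 from 17781690 to 17888959, minus strand. It was the most abundant member on CDAHFD, above 97.8% of detected genes in HFWT. Its FPKM was 13.6, 20.7, 27.0, 35.7 and 43.1 in NDWT and 6.93, 9.29, 10.4, 11.9 and 21.3 in NDKO. On CDAHFD it was 81.5, 85.3, 108, 114 and 119.8 in HFWT, whereas HFKO livers had 75.0, 85.3, 86.6, 90.9 and 93.4. Every CDAHFD liver lay above every control liver. Cd36 rose by a log2FC of 1.95 in WT (SE 0.27, FDR 2.52e-06) and of 2.94 in libraries labelled TSP-1 null (SE 0.27, FDR 1.30e-08), or 1.39 and 2.41 after median of ratios scaling.

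On control diet Cd36 was called lower in NDKO, at 12.0 ± 5.54 against 28.02 ± 11.7 FPKM (log2FC −1.21, 95% confidence interval −1.78 to −0.65, FDR 0.00619), where 3.03% of tested genes were called lower. The groups overlapped, since the highest NDKO liver (21.3) lay above the 2 lowest NDWT livers. With only these 2 groups in the fit the FDR was 0.0581 and the call was lost. Levels spread widely within both groups, with coefficients of variation of 41.9% and 46.3%, against 16.99% in HFWT and 8.21% in HFKO. On CDAHFD the difference was −0.22 (95% confidence interval −0.79 to 0.34, FDR 0.695), and the difference between the diets, 0.99 (SE 0.38), missed the threshold (FDR 0.218). The genes nearest to Cd36 by pattern were Prrg4, Osbpl3 and Synj2 (root mean square difference 0.36 to 0.40, median over tested genes 1.17). Prrg4 had 0.415 ± 0.157 FPKM in NDWT against 0.123 ± 0.119 in NDKO, and 1.84 ± 0.440 FPKM in HFWT against 1.53 ± 0.306 in HFKO.

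Cd47, the receptor for the carboxyl end of TSP-1, lies on chromosome 16 from 49855618 to 49915010, plus strand, and was expressed at similar levels within each group. Its FPKM was 11.9, 13.3, 13.5, 13.9 and 14.54 in NDWT and 10.8, 10.97, 11.5, 11.7 and 12.9 in NDKO. On CDAHFD it was 20.95, 21.2, 21.2, 21.7 and 22.7 in HFWT, whereas HFKO livers had 18.1, 18.2, 18.7, 18.7 and 20.3. The diets were apart in both genotypes, and on CDAHFD all 5 HFKO livers lay below all 5 HFWT livers, which 4.13% of tested genes also did. On the deposited scale Cd47 was called higher on CDAHFD, by a log2FC of 0.68 in WT (SE 0.06, FDR 6.79e-09) and 0.70 in libraries labelled TSP-1 null (SE 0.06, FDR 6.22e-09). These values lay close to the medians of all tested genes, 0.53 and 0.50. After median of ratios scaling they were 0.12 (FDR 0.114) and 0.16 (FDR 0.0397), and after quantile normalization 0.32 and 0.30, all under the fold threshold, so this call rested on the scale.

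The genotype difference of Cd47 was −0.21 on control diet (95% confidence interval −0.33 to −0.08, FDR 0.0281) and −0.19 on CDAHFD (−0.32 to −0.07, FDR 0.114), and neither was called. On the median of ratios scale these were −0.13 and −0.09. The difference between the diets was 0.01 with an interval of −0.17 to 0.19. The genes nearest to Cd47 by pattern were 2610001J05Rik, Hnrnpa3 and Brox, at root mean square differences of 0.072 to 0.085 from it (median over tested genes 0.38). The Cd47 pseudogene row (chromosome 16, 49913193 to 49915008, same strand) covers 28.9% of the exonic bases of Cd47 and was at 0 in every library. Fragments of those bases cannot be assigned from the table.

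**Figure D3:**
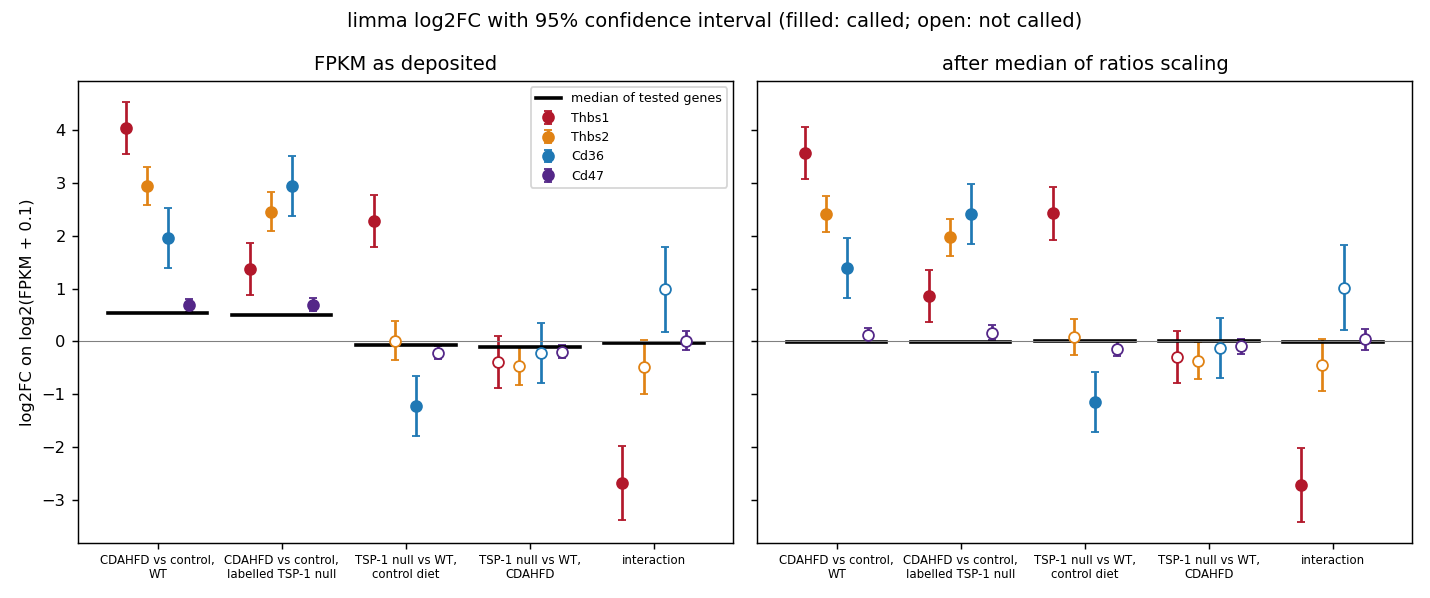
limma log2FC on the log2(FPKM + 0.1) scale (y axis) with 95% confidence intervals for Thbs1, Thbs2, Cd36 and Cd47 in the 4 comparisons and the interaction (x axis), for FPKM as deposited and after median of ratios scaling; black lines are medians of all tested genes and filled points were called. On the deposited scale Cd47 sits at 0.68 beside a median of 0.53 in WT and loses its call on the other scale, whereas Thbs1 in NDKO against NDWT is 2.28 and 2.42.

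The genes that work with these members were read from 5 lists. Of 26 receptors and cell surface partners of thrombospondins, 23 were tested. On CDAHFD 12 were called higher and 0 lower in WT (median log2FC 0.79), and 11 higher and 1 lower in libraries labelled TSP-1 null (median 0.56), shares near those of all tested genes. After median of ratios scaling, 9 of the 23 were higher and 5 lower in WT, and 9 were higher and 2 lower in libraries labelled TSP-1 null. Of all 14524 tested genes, 3299 were called higher and 2242 lower in WT on that scale, and 3225 and 1980 in libraries labelled TSP-1 null. These are the counts to set beside those of each list below on that scale. Sirpa, the CD47 ligand on macrophages, rose from 5.57 ± 0.863 to 55.4 ± 6.70 FPKM in WT (log2FC 3.30, FDR 3.73e-12), and from 7.95 ± 1.83 to 64.6 ± 17.5 in TSP-1 null. Among integrin chains, Itga6 (log2FC 2.34), Itga3 (1.85), Itga5 (1.34) and Itgav (1.27) were called higher on CDAHFD in WT. The heparan sulfate proteoglycan gene Sdc1 was lower on CDAHFD, called in TSP-1 null (log2FC −0.82) and short of the fold threshold in WT (−0.51). On control diet 3 genes of this list were called between the labels. Itgb3, a platelet and vascular integrin chain, was higher in NDKO (1.58 ± 0.302 against 0.929 ± 0.103 FPKM, log2FC 0.69, FDR 0.0121). Calr, the chaperone calreticulin, which also binds TSP-1 at the cell surface, was lower in NDKO (139 ± 29.9 against 253 ± 48.1 FPKM, log2FC −0.88, FDR 0.00137). The Notch ligand Jag1 was lower in NDKO as well (log2FC −0.91, FDR 0.003). With a pseudocount of 1, Itgb3 (0.41) and Jag1 (−0.54) stayed under the fold threshold.

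Of 32 matrix and growth factor partners 25 were tested, and 19 were called higher and 2 lower on CDAHFD in WT (median log2FC 2.45), against 19 and 0 in libraries labelled TSP-1 null (median 2.09). After median of ratios scaling these counts were 18 and 6, and 18 and 5. The fibrillar collagen genes Col1a2 and Col3a1 rose from 1.16 ± 0.158 to 23.5 ± 6.22 and from 3.14 ± 0.723 to 72.6 ± 24.2 FPKM in WT. Mmp2, a matrix protease that TSP-2 helps to clear, rose from 1.01 ± 0.261 to 20.3 ± 6.97 FPKM, and Plat, tissue plasminogen activator, from 0.125 ± 0.103 to 7.48 ± 1.53. The proteoglycan Dcn had a log2FC of 2.22 and the growth factor Pdgfa of 2.46. The genes called lower in WT were the fibrinogen chains Fgb (−0.73) and Fgg (−0.72), which hepatocytes secrete. Between the labels 0 genes of this list were called on either diet, by limma or limma-voom, and 1 on control diet and 8 on CDAHFD had an unadjusted p under 0.05. The share of all tested genes at that unadjusted p is not given here.

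Of 31 other secreted proteins with type 1 repeats, 23 were tested, and 16 were called higher and 3 lower on CDAHFD in WT (median log2FC 1.78). In libraries labelled TSP-1 null, 17 were called higher and 2 lower (median 1.64). After median of ratios scaling the counts were 13 and 4 in each. The metalloprotease genes Adamts7 (log2FC 2.5), Adamts2 (3.16), Adamts5 (3.08) and Adamts12 (2.55), the microfibril associated Adamtsl2 (3.64) and Spon1 (2.84) were called higher in WT. The genes called lower in WT were the complement genes C8a (−0.98), C8b (−1.23) and C9 (−0.71). Adamtsl2 was also called higher in NDKO than in NDWT (log2FC 0.68, FDR 0.0346) and C8a lower (−0.59, FDR 0.0143). The Adamtsl2 call was lost without NDWT library 3, 4 or 5 or NDKO library 1, 2 or 3 (log2FC 0.56 to 0.66, FDR 0.0612 to 0.0985), with limma-voom (FDR 0.0806), without a filter (FDR 0.0639) and with a pseudocount of 1 (FDR 0.143). C8a fell under the fold threshold without NDWT library 3 or 5 or NDKO library 2 (−0.58 to −0.51) and with median of ratios scaling (−0.51) or quantile normalization (−0.54).

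Of 17 other matricellular proteins 13 were tested, and 11 were called higher and 0 lower on CDAHFD in WT (median log2FC 2.53). In libraries labelled TSP-1 null the counts were 12 and 0 (median 1.99), and both pairs of counts were also found after median of ratios scaling. Spp1 (osteopontin) rose from 13.6 ± 1.27 to 379 ± 86.1 FPKM in WT, Sparc from 15.7 ± 1.30 to 93.5 ± 24.1 and Tnc (tenascin C) from 0.0994 ± 0.00673 to 2.23 ± 0.750. Sparcl1 (log2FC 3.46), Smoc2 (3.12) and Wisp2 (4.99) were called as well. On control diet Ctgf (log2FC 1.03, FDR 0.041) and Smoc2 (0.63, FDR 0.00743) were higher in NDKO, and Cyr61 was lower, at 3.17 ± 1.25 against 8.48 ± 1.25 FPKM (log2FC −1.46, FDR 0.000224). Ctgf and Cyr61 belong to the same family of matricellular proteins and were called in opposite directions. The Ctgf call was lost without NDWT library 1, 4 or 5, NDKO library 1, 2 or 3 or HFKO library 1 (log2FC 0.71 to 1.08, FDR 0.0502 to 0.1096). It was also lost with limma-voom (FDR 0.0642), with a pseudocount of 1 (FDR 0.0757), without a filter (FDR 0.0763) and with only these 2 groups (FDR 0.1201). Smoc2 fell under the fold threshold without NDWT library 3 or 4 or NDKO library 1 (0.54 to 0.57) and with a pseudocount of 1 (0.45), while the Cyr61 call stood in every alternative.

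The 19 fatty acid uptake partners of Cd36 were all tested and were split, with 7 called higher and 8 lower on CDAHFD in WT (median log2FC 0.09), against 7 and 4 where the label was TSP-1 null (median 0.28). After median of ratios scaling the counts were 6 and 8, and 5 and 9. Lpl (lipoprotein lipase) rose from 3.39 ± 0.789 to 68.2 ± 8.13 FPKM in WT, and Pparg, a nuclear receptor of fat storage, from 3.60 ± 0.612 to 10.5 ± 1.41. The acyl-CoA synthetase gene Acsl1 fell by 2.36 on the log2 scale, and Acsl5 by 0.79. Bile acid and very long chain acyl-CoA synthetase genes Slc27a5 and Slc27a2 fell by 1.02 and 1.36. The liver fatty acid binding protein Fabp1 was called lower in WT on CDAHFD (−1.48). On control diet Fabp1 was lower in NDKO, at 3513 ± 1046 against 6597 ± 564 FPKM (log2FC −0.96, FDR 0.00128), as was Pparg (−0.75, FDR 0.0114; not called with a pseudocount of 1, at −0.55, or with only these 2 groups, FDR 0.0588), while Slc27a1, a fatty acid transporter, was higher (0.69, FDR 0.0338). In the main limma fit Fabp1 was the only gene of the 5 lists, apart from the members, called in the interaction of diet and genotype (log2FC 1.17, FDR 0.0257). Limma-voom also called Dcn, which missed the threshold in the limma fit (−0.68, FDR 0.0564). The Fabp1 call was lost without NDKO library 1, HFWT library 3 or HFKO library 4 (1.08 to 1.12, FDR 0.05004 to 0.0536) and without a filter (FDR 0.0792). The Slc27a1 call was lost without NDWT library 2 or 3 or NDKO library 1, 2 or 3 (0.56 to 0.66, FDR 0.0656 to 0.0956), with the replicate block (FDR 0.0598), with only these 2 groups (FDR 0.0831) and without a filter (FDR 0.06303).

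Between HFKO and HFWT 0 members and 0 genes of the 5 lists were called, where 0.496% of tested genes were called by limma. In the order of the lists above, 5, 8, 2, 3 and 4 genes had an unadjusted p under 0.05, and limma-voom called Jag1, C6 and Spp1. The share of all tested genes at that unadjusted p is not given here, so these counts are not read as an excess. The median tested gene had a log2FC of −0.10 in this comparison on the deposited scale, and of 0.001 after median of ratios scaling. At an unadjusted p under 0.05 in the limma fit on the deposited scale, Thbs2 and Cd47 were lower in HFKO and Thbs1 and Cd36 did not pass. With limma-voom on the recovered fragments 0 of the 4 tested members were called. Over the alternative settings Thbs2 ranged from −0.47 to −0.36 (FDR 0.108 to 0.371) and Cd47 from −0.20 to −0.09 (FDR 0.081 to 0.603), and neither was called in any.

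**Figure D4:**
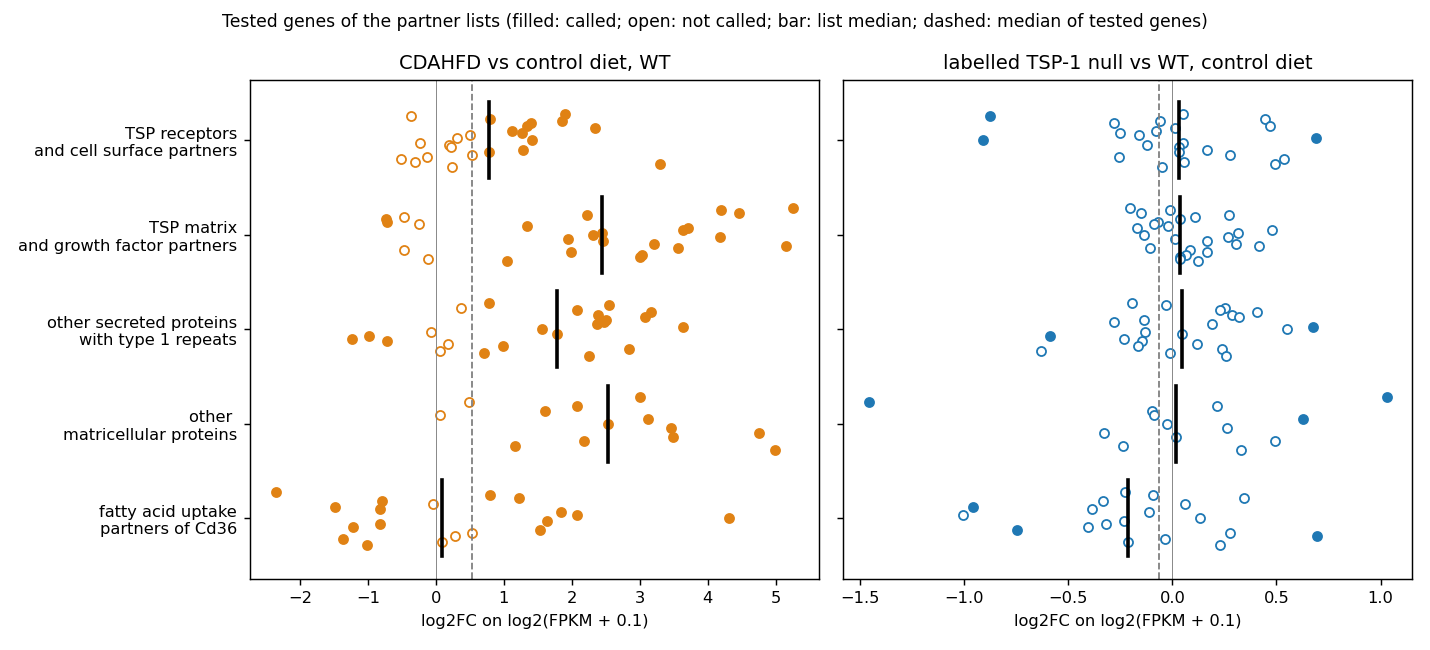
limma log2FC on the log2(FPKM + 0.1) scale (x axis) of each tested gene in the 5 partner lists, for CDAHFD against control diet in WT and for NDKO against NDWT; filled points were called, black bars are list medians and the dashed line is the median of all tested genes. The matrix and matricellular lists have medians of 2.45 and 2.53 on CDAHFD, while every list median lies between −0.21 and 0.05 for the control diet genotype comparison.

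Among the genes overlapping the members or within 10 kb of them, Gm13986, a transcript 674 bases from Thbs1 on the minus strand, was at 0.012 FPKM or less in every library. Beside Thbs3, Muc1 had 0.219 ± 0.118 FPKM in NDWT and 3.93 ± 1.46 in HFWT, and Trim46 had 0.0722 ± 0.0265 and 1.00 ± 0.211. Crtc1, 290 bases from Comp on chromosome 8, had 1.20 ± 0.191 FPKM in NDWT and 2.03 ± 0.374 in HFWT. Crtc1 and Gm13986 lie on the opposite strand to the member beside each.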

How the data were processed

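Poly(A) RNA of 20 livers was sequenced as paired reads on an Illumina instrument with a strand-marking kit. Per the submitters' processing notes, STAR 2.5.2 and featureCounts of Subread 1.5.1 were used. The notes name the build GRCh38, but the coordinates are those of mouse GRCm38. Of the 37607 genes shared with GENCODE M21, 99.8% overlapped their span there, on the same chromosome and strand. The authors deposited FPKM to 3 decimals for 38924 genes. FPKM times length in kb summed to nearly the same constant in each library (999999.7 to 1000000.2), so fragments per gene could be recovered: at least 99.9% of the checked values in any library came out whole, within 0.01 fragments plus rounding. Floors and fragment counts cover counting error only, since molecules carry no identifiers. The lobe sampled is the right medial one in the series text but the right lateral one in the paper.

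limma 3.58.1 (R 4.3.3; lmFit, contrasts.fit, eBayes with trend) was fitted to log2(FPKM + 0.1) of the 14524 genes that exceeded 0.5 FPKM in 5 or more libraries, with all 20 libraries in 1 fit and a mean per group. P-values are two-sided, with Benjamini-Hochberg FDR within each comparison over all tested genes. Fold changes on this scale understate the change of low genes. Thbs3, Thbs4, Comp and the Thbs1 share were compared by exact permutation of the library labels, where the smallest p is 0.00794. All arrangements were enumerated in Python, and the code was checked against scipy 1.17.1 on a made-up set of values. The groups are those of the labels, and each library is given as 1 mouse. Python 3.11.15 with numpy 2.4.6 and pandas 2.3.3 wrote the tables, and matplotlib 3.10.9 drew the figures. Promoter windows came from RefSeq. On simulated data for NDKO against NDWT, the fit held 12835 genes. Of 97 genes changed by a log2FC of 1, 74.2% were recovered, and of 97 changed by 2, 99.0%, with 10 false calls. Recovery for single members was not tested, nor at their spread. The coefficient of variation was 52.4% for Thbs1 in NDWT, and 41.9% and 46.3% for Cd36 in NDWT and NDKO.

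Members, lists, motifs and tests were chosen with earlier results of these data known. Named were the 7 members, at most 6 called genes per partner list by lowest FDR, the 3 genes (5 for Thbs1) nearest in pattern to each tested member, and genes within 10 kb; further list genes (those called between the labels or lower on CDAHFD), mt-Tg and mt-Tr were named after their values were seen. Tf, Adgre1 and Trac, planned as markers, were not used here, and 2 genes that the naming rule selects are not reported here.

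Same-numbered libraries of different groups did not deviate together (correlation of deviations −0.133 to 0.081 over 30 pairs), so replicate numbers were not taken as pairs. Alternatives were pseudocounts of 0.01 and 1, a stricter filter and none, median of ratios scaling, quantile normalization, only the 2 groups compared, limma-voom on recovered fragments, a replicate block and each library left out.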

Additional observations from a re-analysis of the deposited data

Results flagged for a closer look

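Of 26 sets of 5 libraries (a member in a group) checked for a single library far from the others, 3 were flagged, where chance flags about 1 set in 20. Thbs1 in HFKO library 5 was 4.40 FPKM, against 3.05 to 3.32 in the other HFKO libraries, and Cd47 in the same library was 20.3 FPKM, against 18.1 to 18.7. Comp in NDKO library 1 was 0.180 FPKM, against 0 to 0.036 in the other NDKO libraries, from 9 fragments. The genotype difference of Thbs1 on CDAHFD less that on control diet was −2.66 on the log2 scale (limma, FDR 0.0023), higher in 5 of 5 NDKO libraries than in any NDWT library, while HFKO and HFWT overlapped. It was −1.25 with a pseudocount of 1 and −3.24 with limma-voom on the recovered fragments, and it was called in both. The same difference was 1.17 for the fatty acid binding protein Fabp1 (limma, FDR 0.0257) and −1.28 for the macrophage gene Trem2 (limma, FDR 0.0258), both called, and neither call stood in every alternative.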

How the results depend on the processing

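For the members called in each comparison, the Thbs1 effects, the members below the filter and the Thbs1 share, 367 recomputed values kept their side of the threshold (counts, within 1.5 times). No effect past the threshold changed sign. Effects short of it could: with 1 library left out, the Thbs1 share in HFKO against HFWT differed by −1.03 to 1.94 points. Thbs3 in NDKO against NDWT differed by −0.03 to 0.17 on the log2 scale. Without a filter on low values all 7 members were called on CDAHFD in WT and all 7 in libraries labelled TSP-1 null, where Thbs3, Thbs4 and Comp entered the fit. With only the 2 groups compared, 1 member was called between NDKO and NDWT, since Cd36 missed the threshold (FDR 0.0581). The Comp diet difference in libraries labelled TSP-1 null was 0.61 (exact permutation p = 0.0794) with median of ratios scaling, 0.20 (exact permutation p = 0.563) with quantile normalization and 0.70 to 1.08 with 1 library left out (exact permutation p = 0.0556 without NDKO library 2, 3, 4 or 5). Comp in HFKO against HFWT was −0.0843 (exact permutation p = 0.0476) with a pseudocount of 1, and −0.45 to −0.29 with 1 library left out, where the exact permutation p was 0.0317 without HFKO library 5 and 0.0159 without HFWT library 3. The cause was not tested. With the replicate block, 4, 4, 2, 0 and 1 members were called as before, Thbs1 in NDKO against NDWT was 2.28 (FDR 8.86e-05), and no member's call changed, while among list genes Slc27a1 lost its call on control diet (FDR 0.0598); 6 of 20 libraries correlated best with their own number. Over all tested genes, 72 genes called between HFKO and HFWT became 132 with limma-voom, 127 without a filter and 40 with only these groups, 693 between NDKO and NDWT became 393 with a pseudocount of 1, and 94 for the interaction became 54 without a filter. Higher and lower calls moved from 6412 and 671 to 3299 and 2242 with median of ratios scaling in WT, from 6088 and 581 to 3225 and 1980 in TSP-1 null, from 253 and 440 to 348 and 329 on control diet and from 24 and 48 to 38 and 27 on CDAHFD. Of single genes and list counts, 835 values kept their call, 5 lost it (Cd36 above and the Cd47 diet effect in both genotypes under both scalings) and 30 list counts moved by over 1.5 times. Depth limits Thbs4 and Comp most, with at most 12 fragments in any library.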
